A study of Bos taurus with 111 samples.

Results

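IDO1 (ENSBTAG00000020602), UBD (ENSBTAG00000027246) and CASP4 (ENSBTAG00000020884), genes that interferon is known to induce, were followed through muscle biopsies of beef steers that differed in breed, diet and feed efficiency. They were picked by identifier, as 3 of the 24616 genes counted in each library. Biopsies of *M. longissimus thoracis et lumborum*, a muscle of the back, came from Charolais (CH) and Holstein-Friesian (HF) steers whose mean age at the start of the first feeding phase was 283 d for CH and 306 d for HF. Residual feed intake (RFI) is the feed a steer eats beyond what its weight and gain predict, and steers of low RFI (L-RFI, efficient) were set against steers of high RFI (H-RFI, inefficient) within each breed and phase. The 3 phases of 70 d came in a fixed order, a high-concentrate diet (H1), zero-grazed grass (ZG) and the same high-concentrate diet again (H2). Phase and age thus cannot be told apart, and into or out of ZG neither can diet and age. H1 and H2 differ in phase and age on the same diet. Breed cannot be told apart from age or weight.

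After leaving out 6 libraries with under 1000000 reads counted on genes and library 571P3M, 104 libraries from 77 steers remained, in 12 groups of 7 to 11 steers. Charolais gave 8 L-RFI and 10 H-RFI steers for CH-H1, 9 L-RFI and 8 H-RFI steers for CH-ZG, and 7 of each class for CH-H2. Holstein-Friesian gave 9 L-RFI and 11 H-RFI steers for HF-H1, 9 L-RFI and 10 H-RFI steers for HF-ZG, and 8 of each class for HF-H2. Depth ran from 2201765 to 52552057 counted reads with a median of 15852126, and the deepest of the 6 libraries left out for depth had 592192. There were 25 steers with libraries in more than 1 phase and 8 that changed RFI class between phases. CSRP3, which encodes the muscle LIM protein, was found in every library, at 13.8 to 2406 CPM (reads of a gene for every 1000000 reads on all genes).

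Interferon gamma, released by activated T cells and natural killer cells, switches on a set of genes in the cells it reaches, and all 3 genes belong to that set in mammals. IDO1 encodes the enzyme that opens the tryptophan ring and so starts the kynurenine pathway, which restrains T cells. UBD encodes FAT10, a ubiquitin-like protein that marks other proteins for the proteasome and is best known from lymphoid tissue. CASP4 encodes an inflammatory caspase that senses bacterial lipopolysaccharide inside the cell and triggers pyroptosis. In resting muscle such genes are low, and in a bulk biopsy fewer cells of an expressing type and less RNA per cell cannot be told apart.

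All 3 genes were scarce and very uneven between steers. Levels are given in CPM and were not compared between genes, since CPM takes no account of gene length. IDO1 had 0 to 86.8 CPM over the 104 libraries, with a median of 2.29 CPM, a median of 35.5 reads and at least 1 CPM in 82 libraries. UBD had 0 to 14.8 CPM with a median of 0.879 CPM, a median of 12.5 reads and at least 1 CPM in 45 libraries. CASP4 had 0 to 8.80 CPM with a median of 1.34 CPM, a median of 22 reads and at least 1 CPM in 67 libraries. The spread between libraries exceeded the mean for IDO1 and UBD, at a coefficient of variation of 201% for IDO1, 146% for UBD and 89.0% for CASP4. No read was counted in 1 library for IDO1, in 2 for UBD and in 1 for CASP4, and a count of 0 allows up to 3 counts, or 1.36 CPM in the shallowest library and 0.189 CPM in one of median depth.

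The first question was whether efficient and inefficient steers differed within a breed and phase. Among the comparisons in which all 3 members passed the filter, they lay farthest apart in HF-ZG, with a median log2 fold change of -1.44 beside -0.03 over all genes tested, and the highest values of each gene were those of H-RFI steers. In the 10 H-RFI steers IDO1 ran from 0.668 to 86.8 CPM with a median of 4.72, and in the 9 L-RFI steers from 0.263 to 7.97 with a median of 1.40. The ranges overlapped, with 3 H-RFI steers above every L-RFI steer and 1 L-RFI steer below every H-RFI steer. One steer stood far out, since the 86.8 CPM of steer 2272 (1403 reads, 95% Wilson interval 82.4 to 91.5 CPM, counting error only) was followed by 28.3 CPM in steer 1639. IDO1 was 0.321-fold in L-RFI relative to H-RFI on the fitted scale, a log2 fold change of -1.64 (SE 0.774), which did not pass the test (edgeR quasi-likelihood test, p = 0.0457, adjusted p = 0.381).

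UBD and CASP4 were ordered the same way in HF-ZG. UBD had 0.443 to 13.4 CPM with a median of 3.08 in H-RFI steers and 0.117 to 4.92 CPM with a median of 0.538 in L-RFI steers. The ranges overlapped here too, and 1 of the 9 L-RFI steers was above the H-RFI median. The log2 fold change of UBD was -1.44 (SE 0.571; edgeR p = 0.0192, adjusted p = 0.381). CASP4 had 0.267 to 8.80 CPM with a median of 3.43 in H-RFI steers and 0.117 to 2.60 CPM with a median of 1.32 in L-RFI steers. None of the 9 L-RFI steers exceeded the H-RFI median of CASP4 and 6 of the 10 H-RFI steers exceeded every L-RFI steer, yet the lowest H-RFI values lay among the L-RFI ones. Its log2 fold change was -0.94 (SE 0.488; edgeR p = 0.0678, adjusted p = 0.381). Of the 19 HF-ZG steers, steer 1639 ranked second for IDO1 and the first for UBD and CASP4, whereas steer 2272 ranked the first for IDO1, the second for CASP4 and 5 for UBD.

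The HF-ZG values rested in part on these steers. Without steer 2272 the log2 fold change of IDO1 was -0.51 (adjusted p = 0.633). DESeq2 gave -0.33 with no steer left out, at its default settings, which can replace outlying counts. Whether the count of steer 2272 was replaced was not checked. In edgeR with RLE factors the value was -1.605. The study listed all of these genes for HF-ZG, and IDO1 also for the second high-concentrate phase of CH, from these same animals, so that a low value in L-RFI steers there is not independent evidence.

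The 8 leukocyte markers moved with the members in HF-ZG. Summed over PTPRC, CD53, LCP1, CD3E, ZAP70, LYZ, CSF3R and S100A12, they came to 4.87 to 205 CPM with a median of 35.8 in H-RFI steers and 3.95 to 48.2 CPM with a median of 8.41 in L-RFI steers. All 8 had a negative log2 fold change, from -1.67 for PTPRC, the pan-leukocyte phosphatase CD45, to -0.38 for CSF3R, a granulocyte receptor, and 0 of the 8 passed the test in edgeR, with 3 at an unadjusted p under 0.05. Of all 10571 genes tested there 0% were called and 1228 had an unadjusted p under 0.05. The log2 fold change was positive in 5075 of them. The study listed PTPRC, CD53, LCP1, CD3E, ZAP70 and S100A12 as lower in L-RFI steers of HF-ZG. Those values come from the same animals, so the negative signs here are not independent evidence. The part of the 8 markers in the members' difference was not tested.

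**Figure D1:**
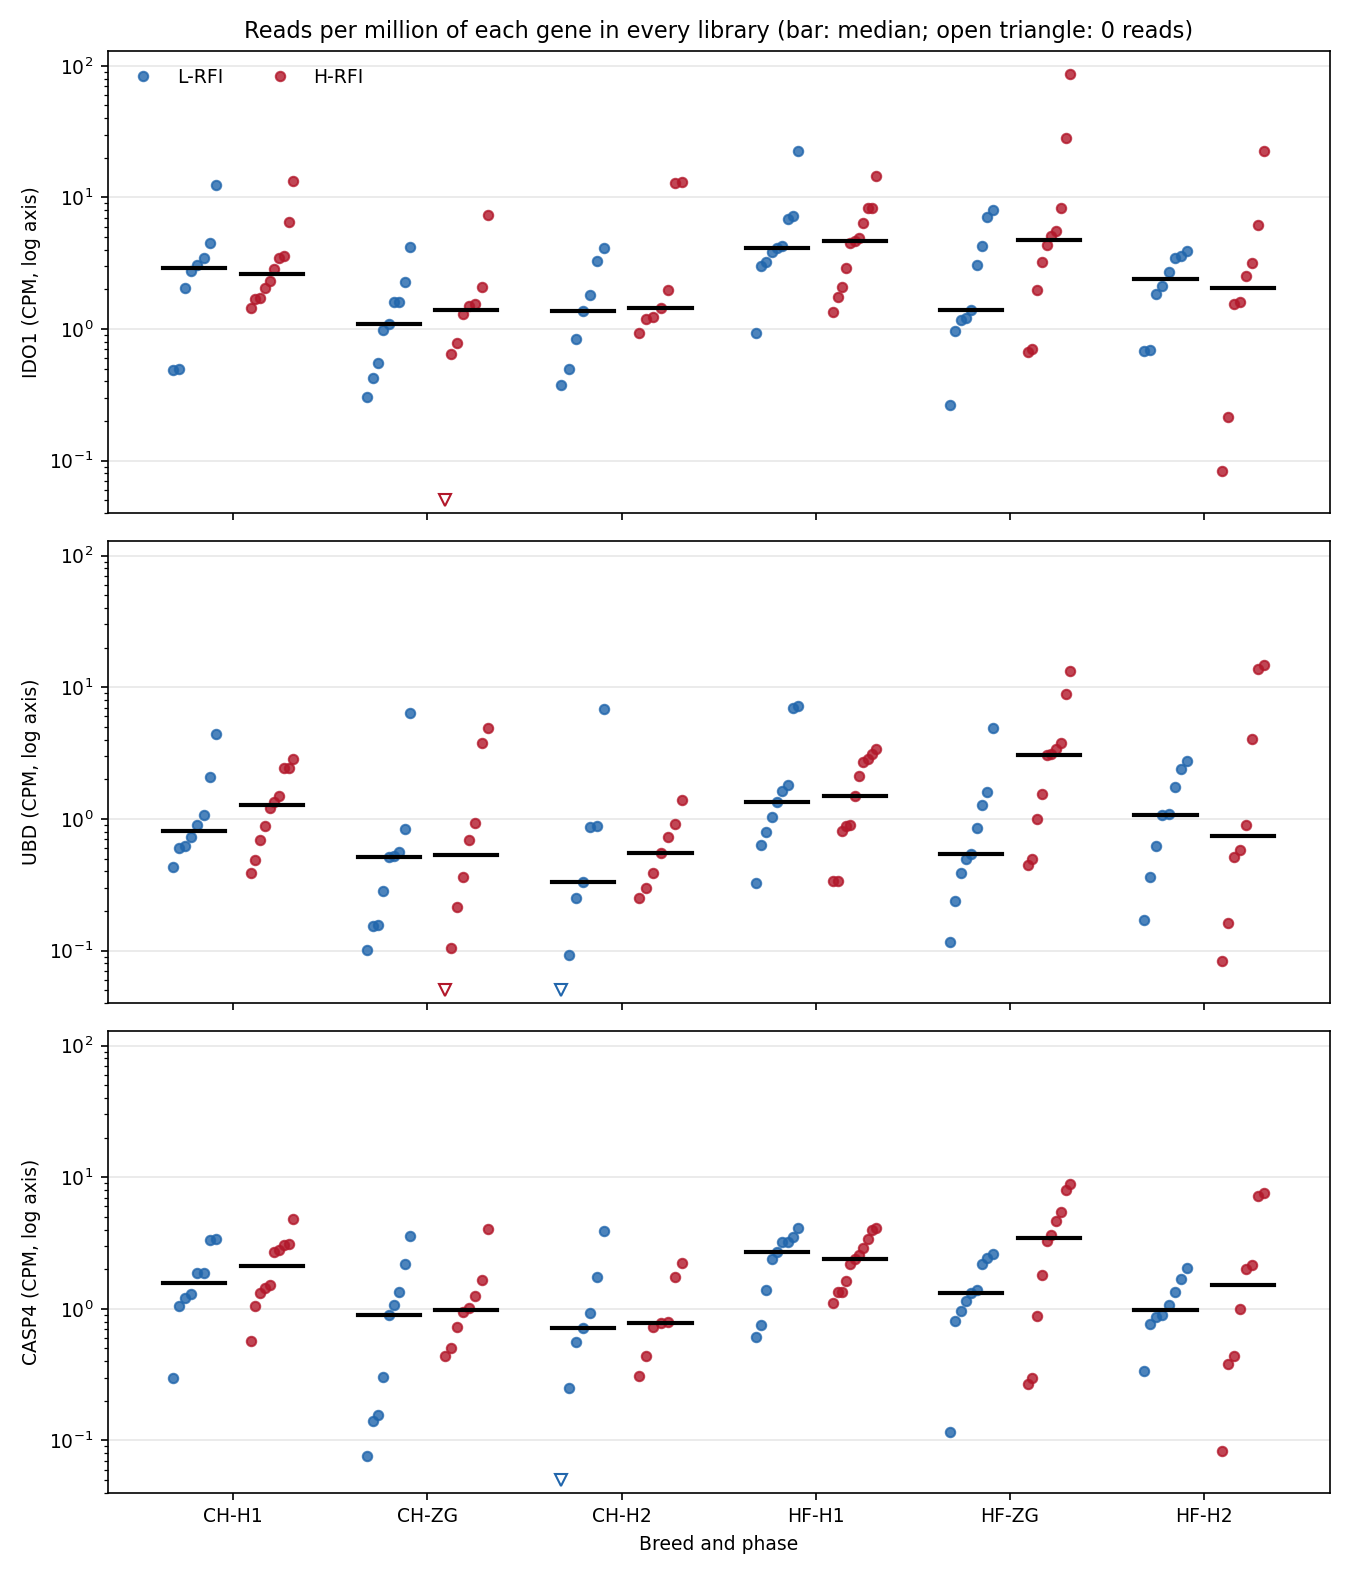
Level of IDO1, UBD and CASP4 in each of the 104 libraries, in CPM on a log axis, by breed and phase (columns) and RFI class (blue L-RFI, red H-RFI). Bars mark group medians and open triangles libraries with 0 reads. The L-RFI and H-RFI points overlap in every column, and the topmost points are H-RFI steers of HF-ZG for IDO1 (86.8 CPM) and CASP4 (8.80 CPM).

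In HF-H2 the H-RFI steers again held the top values. UBD had 0.0837 to 14.8 CPM with a median of 0.736 in H-RFI and 0.169 to 2.74 CPM with a median of 1.08 in L-RFI steers. The H-RFI group thus held both the lowest and the highest steers, and its median was the lower one although the fitted log2 fold change was -1.32 (SE 0.753; edgeR p = 0.0969, adjusted p = 1.000). CASP4 ran from 0.0837 to 7.54 CPM with a median of 1.51 in H-RFI and from 0.339 to 2.05 CPM with a median of 0.982 in L-RFI steers. Its log2 fold change was -0.81 (SE 0.522; edgeR p = 0.137). IDO1 had 0.0837 to 22.4 CPM with a median of 2.07 in H-RFI and 0.677 to 3.89 CPM with a median of 2.41 in L-RFI steers, a log2 fold change of -0.60 (SE 0.634; edgeR p = 0.356). Steer 1639, high in ZG, was also the top HF-H2 steer for IDO1 and CASP4. The summed leukocyte markers described for HF-ZG ran from 2.26 to 184 CPM with a median of 6.11 in H-RFI and from 2.37 to 33.6 CPM with a median of 10.4 in L-RFI steers of HF-H2, so that the highest sums were again in H-RFI. Their part here was not tested.

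In HF-H1 the signs were opposite, with all 3 fitted values higher in L-RFI steers. IDO1 had a median of 4.14 CPM (0.937 to 22.3) in L-RFI and 4.70 CPM (1.34 to 14.5) in H-RFI steers, and a log2 fold change of 0.38 (SE 0.408). UBD had a median of 1.34 CPM (0.323 to 7.18) in L-RFI and 1.498 CPM (0.335 to 3.38) in H-RFI steers, and a log2 fold change of 0.80 (SE 0.50; edgeR p = 0.123). CASP4 had a median of 2.70 CPM (0.606 to 4.09) in L-RFI and 2.37 CPM (1.11 to 4.08) in H-RFI steers, and a log2 fold change of 0.20 (SE 0.253). The ranges overlapped over most of their length, and for IDO1 and UBD the median was the lower one in L-RFI steers, against the sign of the fitted value.

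Among Charolais steers the widest differences were in CH-H2, where IDO1 and UBD had opposite signs. In CH-H2 IDO1 ran from 0.940 to 13.1 CPM with a median of 1.43 in 7 H-RFI steers and from 0.377 to 4.11 CPM with a median of 1.36 in 7 L-RFI steers. The medians were nearly the same, and 2 H-RFI steers, 419 and 443, at 13.0 and 13.1 CPM, lay above every L-RFI steer. The log2 fold change was -1.58 (SE 0.712; edgeR p = 0.0403, adjusted p = 1.000), and -0.90 without steer 419.

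UBD and CASP4 were too low in CH-ZG and CH-H2 to pass the filter of at least 1 CPM in 50% of the steers, and are given there from fits without the filter. UBD in CH-H2 had a log2 fold change of 0.91 (edgeR p = 0.197, adjusted p = 1.0), higher in L-RFI steers and so opposite in sign to IDO1, and 0.98 in 1 model of all libraries. CASP4 in CH-H2 had 0.17, and in CH-ZG UBD had -0.33 and CASP4 -0.17. UBD had at least 1 CPM in 3 of 17 CH-ZG and 2 of 14 CH-H2 steers, and CASP4 in 8 and 4. In CH-H2 UBD was 0 to 6.89 CPM with a median of 0.330 in L-RFI and 0.249 to 1.38 CPM with a median of 0.555 in H-RFI steers. A single L-RFI steer, 322, held the 6.89 CPM and the next had 0.878. In CH-ZG UBD was 0.1004 to 6.43 CPM with a median of 0.513 in L-RFI and 0 to 4.89 CPM with a median of 0.529 in H-RFI steers. CASP4 stayed between 0 and 4.07 CPM in both phases, with group medians of 0.716 to 0.977 CPM.

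In CH-ZG IDO1 had a median of 1.09 CPM (0.307 to 4.21) in L-RFI and 1.40 CPM (0 to 7.37) in H-RFI steers, with a log2 fold change of -0.17 (SE 0.446). In CH-H1 IDO1 had medians of 2.90 CPM (0.486 to 12.5) in L-RFI and 2.60 CPM (1.46 to 13.3) in H-RFI steers, and the log2 fold change was -0.13 (SE 0.455). CASP4 was at -0.31 (SE 0.291) and UBD at -0.19 (SE 0.438) in CH-H1. The CH-H1 differences and that of IDO1 in CH-ZG were smaller than their standard errors, apart from that of CASP4. With library 571P3M and the shallow libraries put back, IDO1 in CH-ZG was at -0.72 (adjusted p = 1.000 in edgeR).

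Counted together, 0 of the 14 member tests between RFI classes passed an adjusted p under 0.1 with a fold above 1.5 in edgeR's quasi-likelihood test. An unadjusted p under 0.05 was reached in 3 of the 14, IDO1 and UBD in HF-ZG and IDO1 in CH-H2, and DESeq2 and edgeR's exact test also called 0 of 14. Over all genes 0% were called in each of the 6 comparisons, with 72 to 1228 genes at an unadjusted p under 0.05, so the members were not set apart by a lack of calls. As the mean of the 6 RFI contrasts, taken from 1 model of all groups, the log2 fold change was -0.64 (SE 0.262) for IDO1. It was -0.31 (SE 0.184) for CASP4 and -0.25 (SE 0.277) for UBD. With the libraries left out put back CASP4 was at -0.59 (edgeR p = 0.00554, adjusted p = 0.202). None of the 3 was called (edgeR adjusted p = 0.656 for IDO1 and CASP4 and 0.700 for UBD), and 0% of 10956 genes were. The members' median was -0.31 beside -0.02 over all genes tested.

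Whether the RFI effect varied over the 6 breed and phase comparisons was tested directly. The test gave p = 0.0504 for UBD, 0.126 for IDO1 and 0.294 for CASP4 in edgeR's F test, all with an adjusted p of 1.000. Of 10956 genes 0 passed, with 168 at an unadjusted p under 0.05. This test takes the 6 comparisons at once. The opposite signs in HF-H1 and HF-ZG were not set against each other alone, so a difference between them was not shown.

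**Figure D2:**
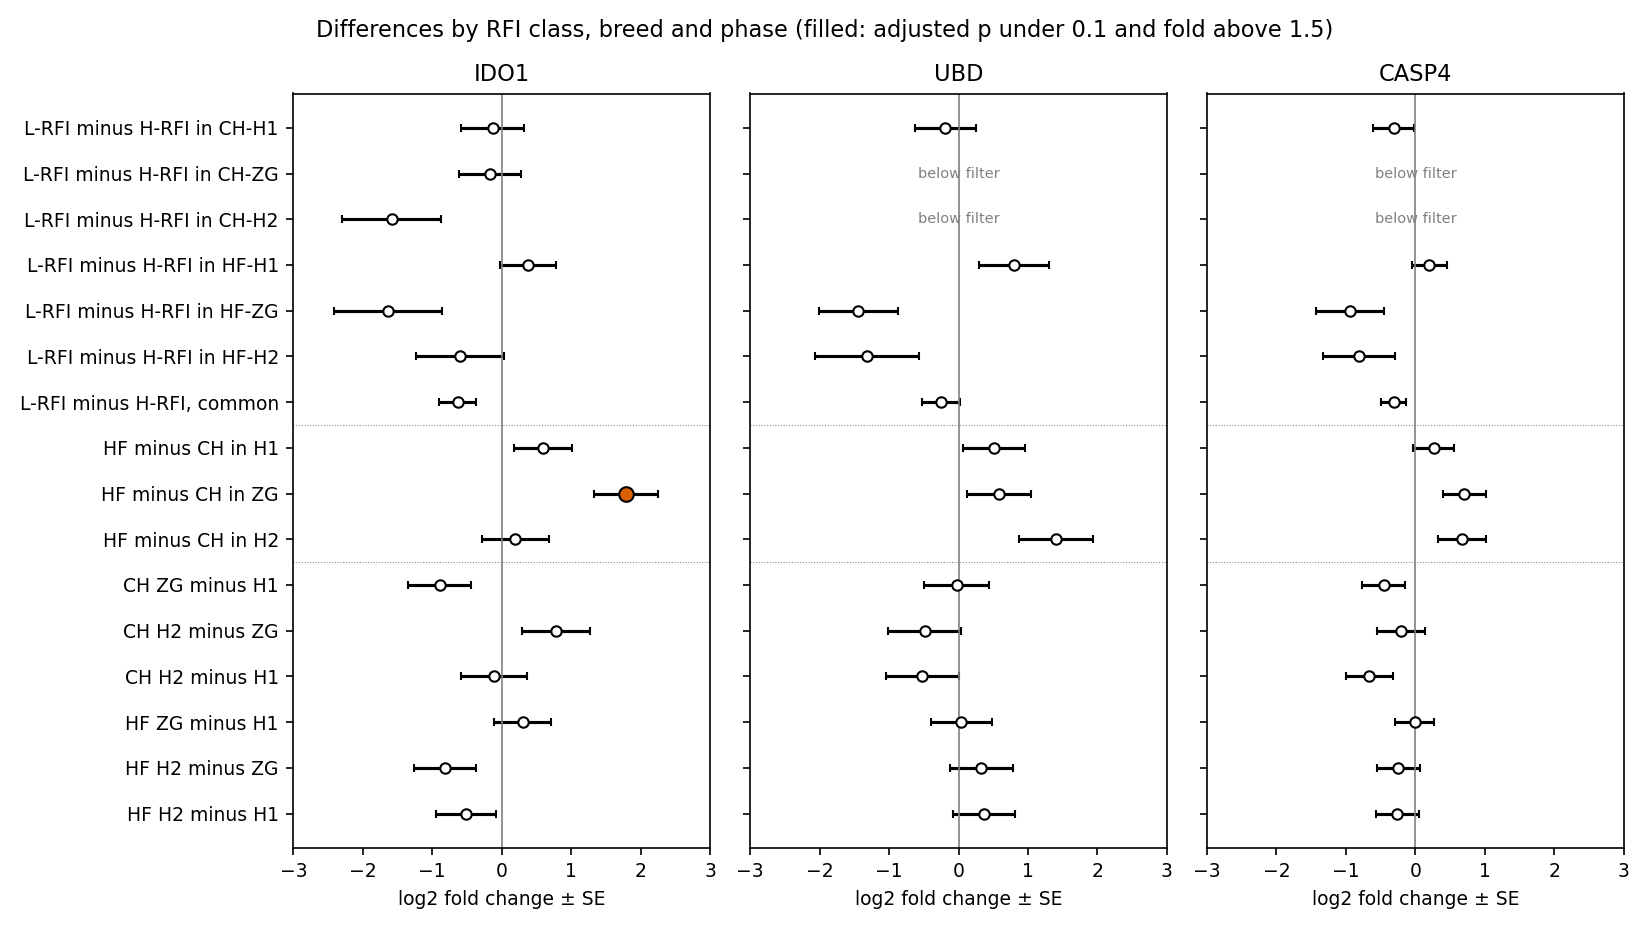
Fitted log2 fold changes of IDO1, UBD and CASP4 with their standard errors (bars) for 7 RFI contrasts, 3 breed contrasts and 6 phase contrasts, on the edgeR scale. The filled point is the single call, IDO1 in HF against CH in ZG at 1.79, and UBD and CASP4 were below the filter in CH-ZG and CH-H2.

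The second question was how the level varied with breed. All 3 genes were higher in HF than in CH steers in each phase on the fitted scale, and 1 of these 9 differences passed. Of all 10956 genes, 5415 were higher in HF in H1, 6532 in ZG and 5986 in H2. UBD and CASP4 passed the filter in each phase of HF but in CH only in H1. In ZG and H2 their entry into the test thus favoured a higher value in HF. In ZG IDO1 ran from 0.263 to 86.8 CPM with a median of 3.25 in 19 HF steers and from 0 to 7.37 CPM with a median of 1.31 in 17 CH steers. The ranges overlapped over most of their length. IDO1 was 3.46-fold higher in HF steers (log2 fold change 1.79, SE 0.458; edgeR adjusted p = 0.0149), beside a background in which 3.46% of 10956 genes were called, 327 higher in HF and 52 lower.

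This call rested on few steers. It was lost without steer 2272, at a log2 fold change of 1.22 (adjusted p = 0.102), and it held when each of the other 35 ZG steers was left out in turn. In limma voom the call was lost as well, at 1.05 with the steer as a replicate block (adjusted p = 0.229) and at 1.07 with the steers not blocked (adjusted p = 0.220). Among H-RFI steers alone the breed difference was 2.54 (adjusted p = 0.0312) and among L-RFI steers alone 1.04 (adjusted p = 0.763), and these values were not shown to differ (log2 difference 1.5, SE 0.897; edgeR p = 0.0975, adjusted p = 0.906).

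**Figure D3:**
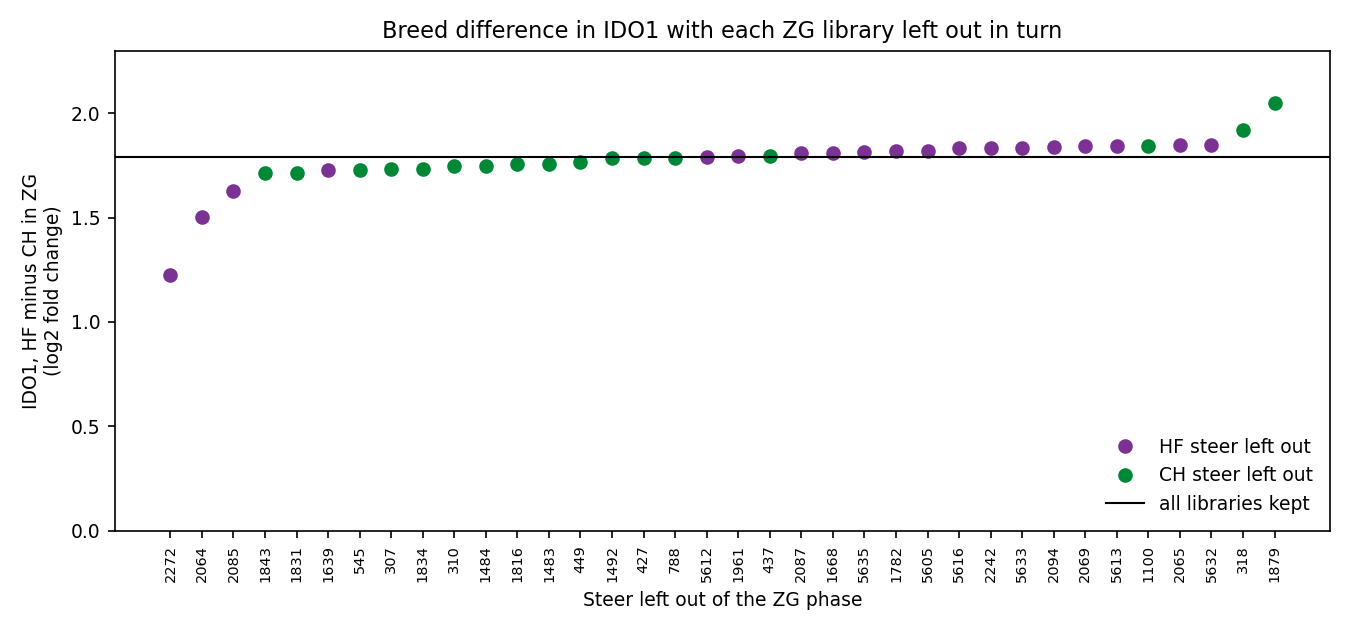
Log2 fold change of IDO1 in HF against CH steers in ZG when each of the 36 ZG libraries was left out in turn (points, purple for HF and green for CH steers), with the value from all 104 libraries as a line. The values run from 1.22 without steer 2272 to 2.05 without steer 1879.

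CASP4 in ZG had a median of 1.81 CPM (0.117 to 8.80) in HF and 0.942 CPM (0.0768 to 4.07) in CH steers. Its log2 difference of 0.71 (SE 0.312; edgeR p = 0.0255, adjusted p = 0.213) did not pass, although it did when CH steer 318 or 1879 was left out (adjusted p = 0.0729 and 0.0910). UBD in ZG had a median of 1.27 CPM in HF and 0.513 CPM in CH steers, with a log2 difference of 0.58 (SE 0.461, adjusted p = 0.510 in edgeR). In H2 the wider gap was that of UBD, with a median of 0.978 CPM (0.0837 to 14.8) in HF and 0.471 CPM (0 to 6.89) in CH steers. The log2 difference was 1.40 (SE 0.533; edgeR p = 0.0100, adjusted p = 0.323). In H2 CASP4 differed by 0.67 (SE 0.350) and IDO1 by 0.20 (SE 0.488), and in H1 the members differed by 0.27 to 0.59. The background was 0.365% of genes called in H1 and 0.438% in H2, with 0 members called in either.

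The leukocyte markers were also higher in HF steers on the fitted scale, all 8 of them in each phase. Their summed level was 3.95 to 205 CPM with a median of 14.6 in HF-ZG and 1.91 to 85.6 CPM with a median of 4.29 in CH-ZG. Library 571P3M of CH-ZG, which was left out, held 201 CPM. The log2 differences in ZG ran from 0.65 to 1.30, with 0 of 8 called by edgeR and 3 at an unadjusted p under 0.05, and in H2 from 0.91 to 1.72, with 1 called, LCP1, an actin-bundling protein of leukocytes. Over all 10956 genes 3.46% were called in ZG, with 1925 at an unadjusted p under 0.05, and 0.438% in H2. Their part in the members' breed differences was not tested.

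The third question was the change between phases, of which H1 and H2 had the same diet. No member passed between any 2 phases within a breed, in 18 edgeR tests of which 0 reached an unadjusted p under 0.05 (DESeq2 called 0, with 3 at an unadjusted p under 0.05). The share of all genes called was far from even, at 2.72% for CH from H1 to ZG, 0.849% for CH from ZG to H2, 1.82% for CH from H1 to H2, 0.712% for HF from H1 to ZG, 4.65% for HF from ZG to H2 and 10.7% for HF from H1 to H2. For IDO1 in CH the log2 change was -0.89 (SE 0.452; edgeR p = 0.0508, adjusted p = 0.244) from H1 to ZG and 0.78 (SE 0.491) from ZG to H2. In HF it was 0.30 (SE 0.416) from H1 to ZG and -0.81 (SE 0.446) from ZG to H2. CASP4 had its widest change in CH from H1 to H2, at -0.66 (SE 0.340; edgeR p = 0.0535, adjusted p = 0.393). UBD changed by -0.52 to 0.37 over the 6 contrasts.

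In edgeR IDO1 thus had opposite signs in the breeds on entering and on leaving the grass phase, but on entering the sign in HF turned to -0.30 in limma voom with the steer as a replicate block and to -0.28 with the steers not blocked. The HF medians also went down, from 4.39 to 3.25 CPM. A direct test of breed by phase gave p = 0.0427 for IDO1 (adjusted p = 0.922), 0.383 for UBD and 0.524 for CASP4 in edgeR. Over all genes 0 of 10956 passed that test, with 473 at an unadjusted p under 0.05.

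The order of the 6 breed and phase levels was similar for the 3 genes. By median CPM, IDO1 ran HF-H1 (4.39), HF-ZG (3.25), CH-H1 (2.81), HF-H2 (2.32), CH-H2 (1.40) and CH-ZG (1.31). UBD ran HF-H1 (1.42), HF-ZG (1.27), CH-H1 (0.984), HF-H2 (0.978), CH-ZG (0.513) and CH-H2 (0.471). CASP4 ran HF-H1 (2.495), HF-ZG (1.81), CH-H1 (1.70), HF-H2 (1.03), CH-ZG (0.942) and CH-H2 (0.754). None of the 15 pairs of neighbours differed beyond the spread of their libraries (two-sided permutation tests on log2 CPM, smallest p = 0.0869 for UBD in HF-H2 against CH-ZG, all adjusted p at least 0.859). HF-H1 and HF-ZG shared 6 steers, and CH-ZG and CH-H2 shared 5. The permutations took the libraries as independent and did not use this pairing. For UBD the mean log2 CPM went against the medians in a pair of places, HF-H1 against HF-ZG (-0.05) and CH-H1 against HF-H2 (-0.26).

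Steers sampled in more than 1 phase gave a view within animals. In the 5 HF steers with both H1 and H2 libraries, IDO1 was lower in H2 in each, with a median ratio of 0.340. In H1 and H2 it was 14.5 and 0.216 CPM in steer 1811, 8.24 and 0.677 CPM in steer 1920, 4.53 and 1.54 CPM in steer 2071, 3.88 and 2.11 CPM in steer 2220, and 4.14 and 3.46 CPM in steer 2095. CASP4 was likewise lower in H2 in 5 of these 5 steers, with a median ratio of 0.270, and UBD was lower in 3 of the 5. A two-sided exact permutation test on 5 steers cannot give a p below 0.0625, and these values within steers are a description with no test. The 6 CH steers with both H1 and H2 libraries were mixed, with IDO1 and UBD higher in H2 in 2 of 6 and CASP4 in 3 of 6. IDO1 in steer 443 was 2.32 CPM in H1 and 13.1 CPM in H2, and in steer 856 it was 13.3 and 1.36 CPM. From ZG to H2, IDO1 was higher in 2 of 5 CH steers and in 0 of 2 HF steers.

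In the 5 CH steers with H1 and ZG libraries, IDO1 was lower in ZG in each (median ratio 0.380) and CASP4 and UBD in 4 of the 5. In the 6 HF steers with H1 and ZG libraries the members were higher in ZG in 2 for IDO1 and in 3 each for UBD and CASP4. A steer's standing carried over only in part. Over the 25 steers with more than 1 library, the deviation from the group mean in the first and the next library had a Pearson r of 0.369 (Spearman rho 0.296) for IDO1, 0.223 (rho 0.162) for CASP4 and 0.157 (rho 0.109) for UBD, given as a description.

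**Figure D4:**
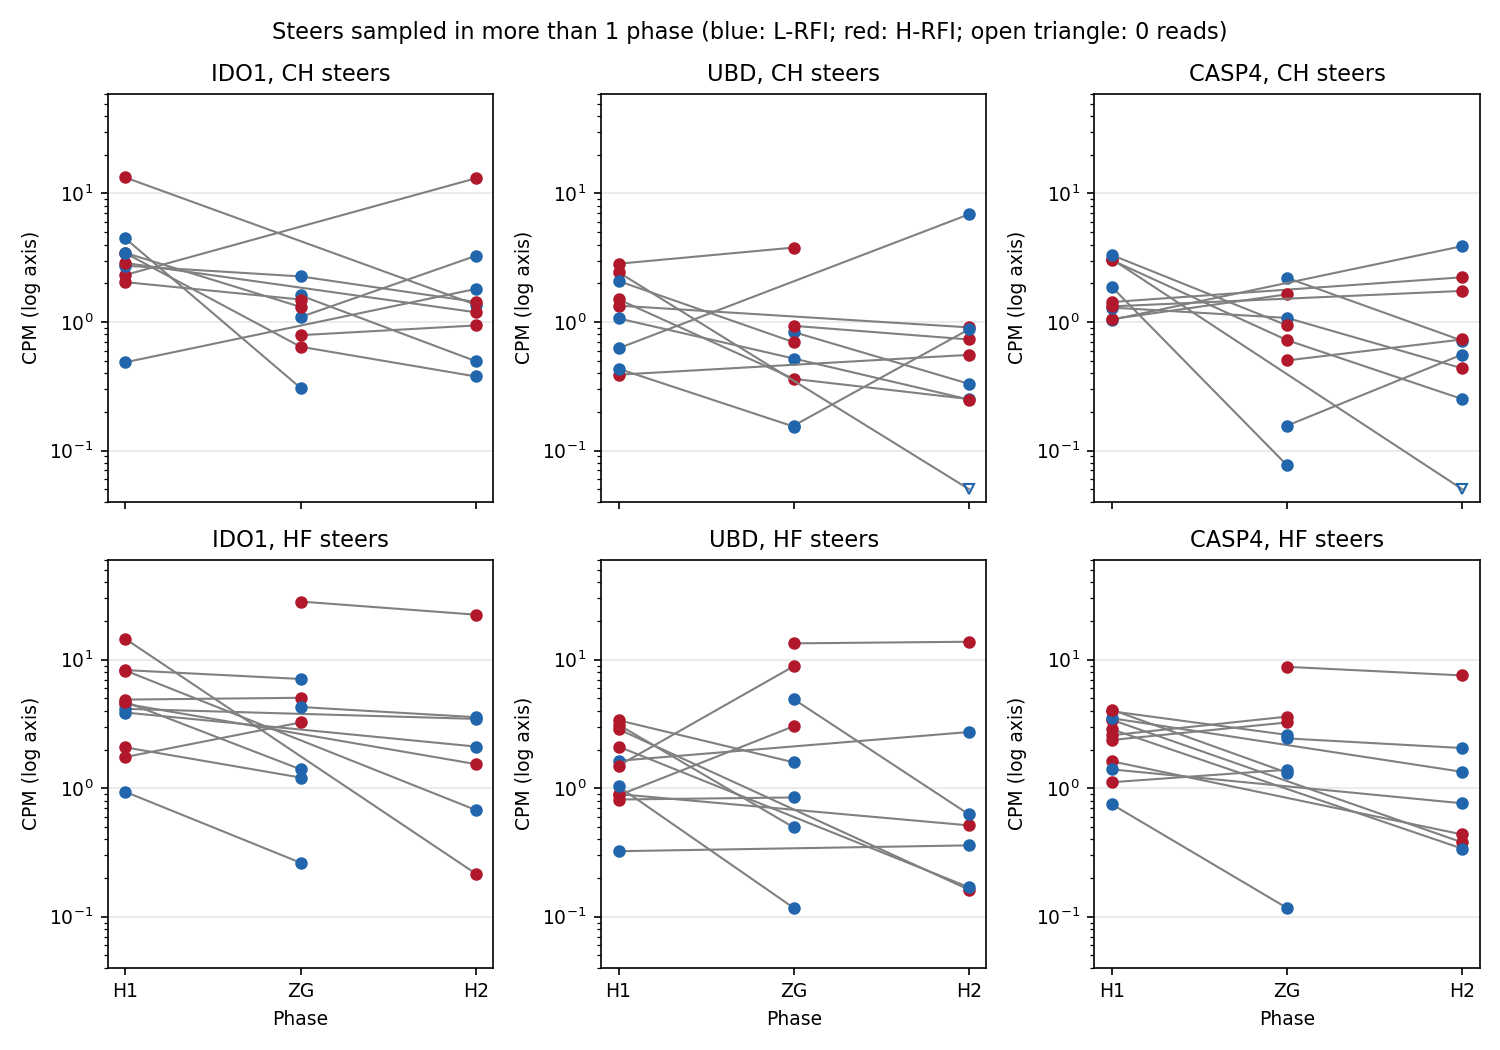
CPM of IDO1, UBD and CASP4 (log axis) by phase in the steers with libraries in more than 1 phase, CH above and HF below, with 1 line per steer and points coloured by RFI class in that phase. In HF steers with H1 and H2 libraries the IDO1 and CASP4 lines all end below where they start.

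The members varied together from steer to steer. The study listed all 3 for HF-ZG from these same animals, and the permutation tests here do not cover that choice of genes. For each of the 77 steers, the deviation of log2 CPM (prior count 2) from its group mean was averaged over its libraries. IDO1 and CASP4 had the closest relation (Pearson r = 0.665, Spearman rho = 0.607, n = 77), followed by UBD and CASP4 (r = 0.604, rho = 0.587) and IDO1 and UBD (r = 0.502, rho = 0.414). The permutation p was 1e-05 for each of the 3 values of r, the smallest that 100000 permutations can give, also after adjustment over the 3 pairs, and for rho it was 1e-05, 1e-05 and 0.00028. Leaving out the 2 steers farthest from the median of the first gene of each pair gave r = 0.668, 0.543 and 0.483 in the same order, so the relations did not rest on those steers.

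Within the breed and phase cells the relation was not equally close. For IDO1 and CASP4, r was highest in HF-ZG at 0.835 (n = 19 steers), followed by 0.806 in HF-H2 (n = 16), 0.683 in CH-H1 (n = 18), 0.651 in HF-H1 (n = 20), 0.591 in CH-ZG (n = 17) and 0.135 in CH-H2 (n = 14). For UBD and CASP4 it ranged from 0.275 in CH-H1 to 0.853 in HF-H2. For IDO1 and UBD it ranged from 0.0470 in CH-H2 to 0.742 in HF-H2. IDO1 was least related to the other members in CH-H2, the smallest cell, where steers 419 and 443, at 13.0 and 13.1 CPM of IDO1, had 0.299 and 0.908 CPM of UBD. These values within cells are a description, with no test.

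Depth was shared by all genes of a library and moved weakly with the members, with an r of 0.220 for IDO1, 0.208 for UBD and 0.257 for CASP4 against log2 depth. In the 63 steers with libraries of at least 10000000 counted reads, the 3 values of r were 0.678, 0.652 and 0.479, in the same order of pairs.

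The members also moved with the leukocyte markers. The study listed the members and most of these markers for HF-ZG from these same animals. The genes are thus not a neutral choice, which the permutation tests here do not cover. Against the mean deviation of the 8 markers, r was 0.869 for UBD (rho = 0.823), 0.584 for CASP4 (rho = 0.496) and 0.434 for IDO1 (rho = 0.339) over 77 steers, with permutation p of 1e-05, 1e-05 and 0.00011. The relation of UBD held in each cell, with r from 0.786 in CH-H2 to 0.969 in HF-H2. That of CASP4 ranged from 0.185 in CH-H1 to 0.841 in HF-H2. That of IDO1 was from -0.271 in CH-H2 to 0.679 in HF-H2. With the marker mean regressed out of each gene, IDO1 and CASP4 kept r = 0.563 (permutation p = 1e-05), while IDO1 and UBD had r = 0.281 (p = 0.0130) and UBD and CASP4 r = 0.240 (p = 0.0354).

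**Figure D5:**
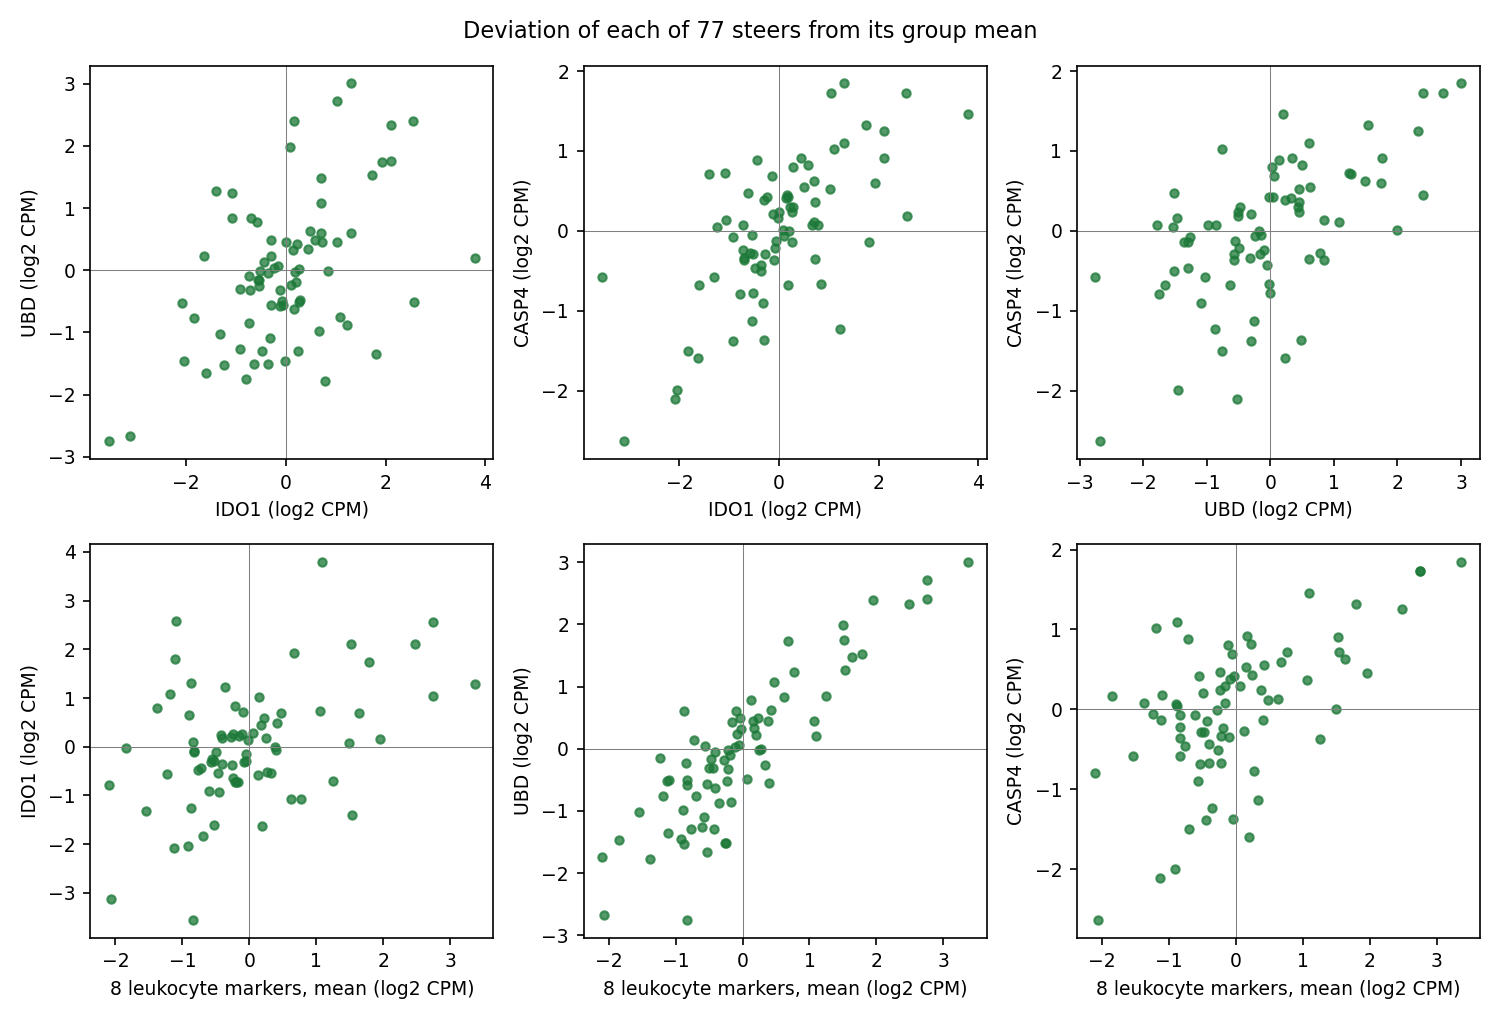
Deviation of log2 CPM from the group mean for 77 steers (1 point each), the members against each other in the upper row and against the mean of 8 leukocyte markers in the lower row. The points of UBD against the markers lie closest to a line (r = 0.869) and those of IDO1 against the markers are the most scattered (r = 0.434).

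The genes whose pattern was most like that of each member were sought among the 144 other tested genes with a symbol, by Spearman's rho over 104 libraries. These symbols come from the study's lists of genes chosen on these same samples, so they are not a neutral sample of genes. IDO1 was closest to CTSS (rho = 0.711), a lysosomal protease of antigen-presenting cells, and GBP1 (0.703), a guanylate-binding protein induced by interferon gamma. CASP4 (0.695), SRGN (0.678), the granule proteoglycan serglycin, and LYZ (0.661), lysozyme, came next. UBD was closest to SRGN (0.830), PTPRC (0.816), LYZ (0.814), DOCK2 (0.791), which drives leukocyte migration, and MYO1F (0.788), an unconventional myosin of leukocytes.

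CASP4 was closest to CTSS (0.857), GIMAP8 (0.821), an immune GTPase, RESF1 (0.809), SRGN (0.805) and PTPRC (0.787). Among all 10955 other genes, named or not, CTSS was in place 1 for CASP4 and in place 2 for IDO1, and SRGN in place 1 for UBD. The member nearest to another was CASP4, in place 5 for IDO1.

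Few other interferon genes could be placed. Of 24 genes on the interferon gamma list 2 had an identifier paired with a symbol, GBP1 and HLA-DQA2, and of 29 on the type I interferon list 2 had one, IFIT3 and MX1. The genes of interferon signalling, of the remaining kynurenine pathway, of the inflammasome and of FAT10 conjugation were not analysed here. GBP1, HLA-DQA2, IFIT3 and MX1 were picked by the study from these same libraries. In the RFI contrasts 0 of the 4 genes was called by edgeR, and MX1 alone reached an unadjusted p under 0.05, with signs that conflicted (0.91 in CH-ZG, against -0.55 in CH-H1 and -1.37 in CH-H2). In HF-ZG GBP1 had a log2 fold change of -1.01 (SE 0.578, adjusted p = 0.381).

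In HF against CH steers in ZG, where IDO1 was called, 2 of these 4 genes were called as well. The background was 3.46% of all genes in edgeR and 149 genes in limma voom with the replicate block. GBP1 passed the filter only in HF-H1 and HF-ZG, so its entry into the test favoured a higher value in HF. The 4 genes also came from the study's lists on these samples, so the count is not independent evidence. IFIT3, an antiviral protein induced by type I interferon, was 2.61-fold higher in HF steers (log2 1.38, SE 0.364; edgeR adjusted p = 0.0172), and GBP1 was 2.22-fold higher (log2 1.15, SE 0.385; adjusted p = 0.0768). MX1, an antiviral GTPase, had a log2 difference of 0.93 (adjusted p = 0.117) and HLA-DQA2, a class II antigen-presenting chain of a multigene family whose reads may be shared with near copies, 0.13 (adjusted p = 0.879). In CH steers GBP1 fell by 1.09 on the log2 scale from H1 to ZG (adjusted p = 0.0946 in edgeR), where IDO1 had -0.89 without a call. MX1 fell in HF steers by 1.23 from ZG to H2 (adjusted p = 0.0238) and by 1.24 from H1 to H2 (adjusted p = 0.00989), where IDO1 had -0.81 and -0.51 without a call.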

How the data were processed

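Muscle RNA was sequenced from 83 steers, 25 of the 77 analysed being sampled in more than 1 phase. According to the study's methods adapters were removed with cutadapt, and STAR, run by the authors, both aligned reads to ARS-UCD1.2 and tallied them per Ensembl gene (GeneCounts), whereas the submitters' processing notes name UMD3.1, so no coordinates are given. The values the authors deposited are raw counts per gene, not normalised or filtered. The reverse-strand column was used (median share of stranded counts, 98.97%), and 0 library pairs were identical. Reads outside genes stayed out of library sizes. The 3 genes, the lists and the tests were chosen with earlier results of these data known.

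For each RFI comparison, genes with at least 1 CPM in 50% of the libraries were kept, TMM factors computed and steers compared by edgeR's quasi-likelihood test. Breed and phase contrasts and the mean of the RFI contrasts over the comparisons, called the common RFI effect, came from 1 model. It held 12 group means over 104 libraries and kept 10956 genes that passed the filter in at least 1 breed and phase. Genes with a Benjamini-Hochberg adjusted p under 0.1 and a fold above 1.5 were called. Standard errors were derived from the F statistic. Levels are plain CPM, and correlations used log2 CPM with TMM factors and a prior count of 2. Replicate numbers are steer numbers, so libraries of a number come from the same animal. Between libraries of a steer the deviations correlated with r of 0.157 to 0.369, and the consensus correlation in the block fit was 0.105.

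Alternatives were DESeq2's Wald test, edgeR's exact test, RLE factors, no filter, unstranded counts, all libraries, a replicate block (limma voom), a prior count of 0.5, group means not removed, 1 model for the RFI comparisons and leaving out steers in turn. Libraries with under 1000000 counts and library 571P3M were left out by the rule that chose the genes. Leaving out ZG steers in turn for the breed difference, the RFI classes alone, libraries of at least 10000000 counts the marker regression and limma voom with the steers not blocked were chosen after seeing the data. Intervals and floors cover counting error only. Genes named were the members, for each member the 5 closest genes with a symbol, and at most 4 per list. Symbols came from the study's gene list, which pairs 151 identifiers of the files with names. The tests were tested on simulated data. Fits were run with edgeR 4.0.16, DESeq2 1.42.0 and limma 3.58.1 under R 4.3.3, and correlations under Python 3.11.15.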

Additional observations from a re-analysis of the deposited data

Results flagged for a closer look

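Each gene in each group of 7 to 10 steers made 1 set, 33 in all. In 12 of the 33 sets, the highest steer lay farther from the next than Dixon's 95% critical value allows. Chance flags about 1 in 20 sets of normal values. CPM were skewed upward and the sets share steers across correlated genes, so the number found was not set against that rate. For IDO1 these were steer 2272 in HF-ZG H-RFI (86.8 CPM, the next 28.3), steer 1639 in HF-H2 H-RFI (22.4, the next 6.21), steer 1643 in HF-H1 L-RFI (22.3, the next 7.24), steer 856 in CH-H1 H-RFI (13.3, the next 6.47), steer 1797 in CH-H1 L-RFI (12.5, the next 4.47), steer 1879 in CH-ZG H-RFI (7.37, the next 2.10) and steer 318 in CH-ZG L-RFI (4.21, the next 2.26). For UBD they were steer 322 in CH-H2 L-RFI (6.89, the next 0.878), steer 318 in CH-ZG L-RFI (6.43, the next 0.835), steer 5612 in HF-ZG L-RFI (4.92, the next 1.59) and steer 1797 in CH-H1 L-RFI (4.43, the next 2.08). For CASP4 it was steer 1879 in CH-ZG H-RFI (4.07, the next 1.64). Steers 1797, 318 and 1879 stood out for a pair of members each.

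Library 571P3M (CH-ZG, H-RFI), which no comparison used, held 35.1 CPM of CASP4, above the highest value of 8.80 CPM in the libraries kept, and 15.1 CPM of UBD, above 14.8 CPM. Its 8 leukocyte markers summed to 201 CPM, beside at most 205 CPM in a library kept.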

How the results depend on the processing

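Of 364 values recomputed under another setting, leaving out steers aside, 354 kept their direction and their side of the threshold. The breed difference of IDO1 in ZG, the single call, was at 1.05 in limma voom with the replicate block and at 1.07 with the steers not blocked (0 member comparisons called in either, against 1), and at 1.04 among L-RFI steers alone. The change of IDO1 in HF from H1 to ZG turned to -0.30 with the replicate block and to -0.28 in voom without it. Within limma voom the block thus changed no member's call. With all libraries, library 571P3M among them, CASP4 reversed to -0.12 for HF against CH in ZG, and from H1 to ZG in CH steers CASP4 reversed to 0.37 and UBD to 0.40. Without a turn of sign, that setting moved UBD for HF against CH in ZG to 0.15, and CASP4 to -1.02 and UBD to -0.92 for CH from ZG to H2. The cause was not tested. Leaving out each ZG steer gave 1.22 to 2.05 for the breed difference of IDO1 in ZG (called in 35 of 36), 0.52 to 0.88 for CASP4 (called in 2) and 0.24 to 1.18 for UBD. Leaving out each steer in turn gave -2.20 to -0.51 for IDO1, -2.10 to -1.08 for UBD and -1.28 to -0.75 for CASP4 between RFI classes in HF-ZG, and -1.90 to -0.90 for IDO1 in CH-H2, without a call. RLE factors shifted the median log2 fold change of all genes by less than 0.1. The count of all genes called moved by more than 1.5 times in several comparisons. For HF against CH in ZG it went from 379 to 149 in voom with the replicate block and 144 without it, 735 without the filter and 98 with all libraries. For that contrast in H1 it went from 40 to 72 with DESeq2 and 19 with all libraries, and in H2 from 48 to 87 with DESeq2, 78 without the filter, 21 in voom with the block, 9 in voom without it and 5 with all libraries. Between phases it went from 1167 to 1791 in voom with the block (1535 without it) for HF from H1 to H2 and from 199 to 310 with DESeq2 for CH from H1 to H2. With all libraries it went from 298 to 610, from 93 to 469 and from 199 to 112 for CH from H1 to ZG, ZG to H2 and H1 to H2, from 78 to 39 for HF from H1 to ZG and from 0 to 38 for the common RFI effect (1 in voom without the block). Within a breed and phase DESeq2 and the exact test called at most 2 genes.

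The members rested on a median of 12.5 to 35.5 reads per library, and 3 counts were worth 1.36 CPM in the shallowest library and 0.189 CPM at the median depth.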
